A study of Mus musculus with 6 samples.

Results

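The 10 genes described here, Scrib, Fuz, Intu, Invs, Dact1, Daam1, Fat4, Dchs1, Sec24b and Grhl3, act beside or downstream of the core planar cell polarity proteins in closure of the neural tube. They were taken by name, and each was read from the probe sets that the array's annotation assigns to that symbol alone. All 10 were found among the 18193 genes with a single symbol, on 20 probe sets in all, and where a gene had several probe sets the brightest over the 6 arrays represents it. Total RNA of whole mouse embryos, taken at embryonic day 8.5, had been hybridised to 6 single-colour arrays. In 3 of them the genotype was Fz2-/-; Fz7-/-, called the double knockout, and in the other 3 it was Fz2+/+; Fz7-/-, called the single knockout. Loss of Fzd7 was therefore shared by every array, all embryos were of a C57BL6/129 mixed background and of mixed gender, and the comparison asks what loss of Fzd2 adds. The labels give no embryo count per sample and no litter, so each p-value rests on the spread among these arrays and part of that spread may be technical. Embryos wild type for both genes were not analysed here.

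Planar cell polarity orients cells within the plane of an epithelium, and in the neural plate it drives the convergence and extension that bring the neural folds together. Frizzled receptors and their partners set up asymmetric complexes at cell borders, and effectors then act on the actin cytoskeleton, on cilia and on protein export. Mouse mutants of many of these genes have open neural tubes.

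Fzd2, the gene that separates the genotypes, read 7.30, 7.69 and 7.63 in the double knockout (replicates 1 to 3, the order of all such values), against 9.86, 9.99 and 10.01 in the single knockout. All levels here are log2 values after RMA (robust multi-array average). The brighter Fzd7 probe set averaged 4.89 in the double knockout and 4.92 in the single knockout, and the sources used here do not place it relative to the deleted part of the gene. Double knockout replicate 1 stood apart before any of the 10 genes was considered. Its highest correlation with another array across genes was 0.990, against 0.997 to 0.998 for each remaining array. Its lowest was 0.986, and those of the remaining arrays were 0.986 to 0.990. On this array 479 genes lay over 1 log2 unit from what the other 5 arrays averaged, against 18 to 37 genes for each remaining array. The differences of the 10 genes and the marker counts below are given with and without it.

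No gene of the 10 passed the test between genotypes. The test was limma with Benjamini-Hochberg adjustment over all 18193 genes at a threshold of 0.05. It called 1 gene, Fzd2, which is 0.0055% of those tested. Unadjusted p values under 0.05 were found for 0 of the 10 genes and for 4.96% of all genes. The difference was below 0 for 6 and above 0 for 4, with a median of -0.052 (-0.0093 over all genes), and its size was under 0.2 on the log2 scale for 8 of the 10. Without double knockout replicate 1 the same test called 0 of the 10 and 0.0055% of all genes, every one of the 10 differed by less than 0.2, and the median was -0.011 (-0.0067 over all genes).

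**Figure D1:**
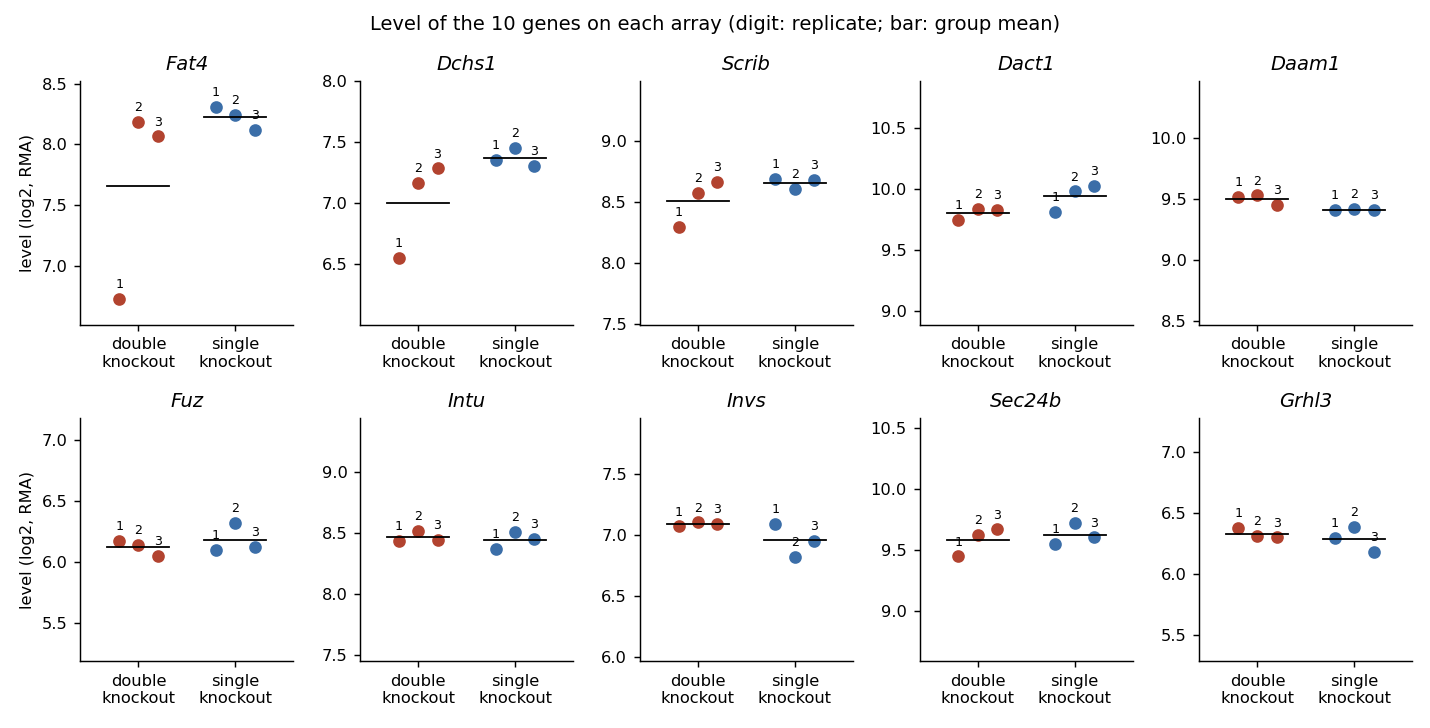
Level of each of the 10 genes on every array (vertical axis, log2 after RMA, each panel spanning 2 log2 units), with double knockout arrays in red on the left and single knockout arrays in blue on the right. Digits give the replicate and bars the group mean (n = 3). Fat4 and Dchs1 lie low in double knockout replicate 1, at 6.73 and 6.55, and Scrib is lowest there too, at 8.29, within a range of 0.40. Among the other panels the widest range is 0.28, for Invs.

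Fat4 and Dchs1 encode giant atypical cadherins that bind each other across the border between neighbouring cells, with Dchs1 as ligand and Fat4 as receptor. These were the members with the most negative differences between double and single knockout, and with double knockout replicate 1 left out both differences were closer to 0. Fat4 (chr3:38884667-39011992, GRCm38.p6) read 6.73, 8.19 and 8.07 in the double knockout, against 8.31, 8.24 and 8.12 in the single knockout. Replicate 1 of the double knockout lay far below the other 5 arrays, at 35.7% of the single knockout mean, and replicate 2 lay inside the single knockout range. The difference was -0.56 (SE 0.37, 95% confidence interval -1.45 to 0.34, limma adjusted p = 0.872). Without double knockout replicate 1 it was -0.10 (SE 0.08, interval -0.29 to 0.10, limma adjusted p = 0.886). The remaining Fat4 probe set read 6.63, 8.18 and 7.90 in the double knockout, against 8.29, 8.16 and 7.94 in the single knockout. Its difference was -0.56 with all arrays and -0.09 without double knockout replicate 1, so the low value on that array was present on both Fat4 probe sets.

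Dchs1 (chr7:105752989-105788355, GRCm38.p6) read 6.55, 7.16 and 7.28 in the double knockout, against 7.35, 7.45 and 7.30 in the single knockout. All 3 double knockout arrays lay below the lowest single knockout array, by a narrow margin in replicate 3. Dchs1 averaged 6.999 ± 0.39 in the double knockout and 7.37 ± 0.08 in the single knockout (SD, n = 3 each). The difference was -0.37 (SE 0.19, interval -0.83 to 0.08, limma adjusted p = 0.872). Groups that did not overlap in this direction were found for 6.6% of all genes. Without double knockout replicate 1 the Dchs1 difference was -0.15 (SE 0.07, limma adjusted p = 0.787), still with no overlap between groups. In whole embryos, fewer cells that express a gene and less RNA per cell cannot be told apart.

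The low values of this ligand and receptor on double knockout replicate 1 can be read against all genes on that array. Fat4 deviated by -1.45 from the mean of the other 5 arrays on the log2 scale, and 1.36% of genes deviated by more in either direction. Dchs1 deviated by -0.76, and 4.06% of genes by more. These were the 2 genes of the 10 that lay over 0.5 from the other arrays, and 8.2% of all genes did so on this array. On the other 5 arrays 0 of the 10 genes lay that far out, where only 183 to 324 of all 18193 genes did so on each array.

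Markers of several tissues also stood apart on double knockout replicate 1, and their part in the Fat4 and Dchs1 values was not tested. Summed levels are given as log2 of the summed linear values. All 7 paraxial mesoderm markers differed below 0 with all arrays and 6 of 7 without that array (medians -0.58 and -0.26). Their summed level was 10.98 to 11.28 in the double knockout against 11.25 to 11.53 in the single knockout. In limma with all arrays 3 of these 7 had an unadjusted p under 0.05, against 4.96% of all genes, and 0 passed after adjustment. Pax1, Uncx and Myf5 were below the median level of all genes. Cardiac markers differed below 0 for 6 of 6 with all arrays but for 2 of 6 without that array (medians -0.80 and 0.013), with summed levels of 12.69 to 14.83 in the double knockout and 14.65 to 14.88 in the single knockout. Neural plate markers were below 0 for 10 of 13 with all arrays and for 6 of 13 without it (medians -0.34 and 0.0078). With all arrays 4 of the 13 had an unadjusted p under 0.05 in limma, against 4.96% of all genes. These were Zic1 at -2.45, En2 at -1.44, Olig2 at -1.31 and Hes5 at -0.96 (limma adjusted p = 0.872 each). Without that array they differed by -1.39, -1.19, -0.91 and -0.56, while 7 of the 13 markers were then above 0. En2 and Olig2 were below the median level of all genes. The neural plate markers summed to 11.98 to 12.66 in the double knockout and 12.47 to 12.64 in the single knockout. Primitive erythroid markers were below 0 for 5 of 5 in both settings (medians -3.42 and -1.49), since they were low on double knockout replicates 1 and 3, at median deviations of -7.25 and -3.20 from the single knockout mean, and not on replicate 2, at 0.23. Their summed level was 7.82 to 15.07 in the double knockout and 14.51 to 15.04 in the single knockout. Epiblast markers differed above 0 for 8 of 8 in both settings (medians 0.39 and 0.24), at 11.65 to 12.93 in the double knockout and 11.39 to 11.59 in the single knockout. Visceral endoderm markers were above 0 for 8 of 8 with all arrays but for 1 of 8 without replicate 1 (medians 0.82 and -0.21), and placental markers for 4 of 4 and for 2 of 4 (medians 1.09 and -0.015). Visceral endoderm summed to 12.64 to 15.21 in the double knockout and 12.63 to 13.12 in the single knockout, and placental markers to 5.94 to 9.05 in the double knockout and 5.88 to 6.25 in the single knockout. No value is 0 after RMA. The placental markers and 6 of the 8 epiblast markers were below the median level of all genes.

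With predicted and cDNA-clone genes left out, the genes whose levels followed Fat4 most closely over the 6 arrays were Plagl1, Tmod1, Tmem204, St8sia1 and Irx4. Likeness was measured as the root mean square difference between profiles after each gene's own mean was subtracted, and it was 0.0692, 0.0789, 0.0857, 0.0935 and 0.0939 log2 units for these 5 genes. The Fat4 profile is mostly its low value on double knockout replicate 1, so genes chosen by this measure had to be low on that array. Their deviations there, -1.44 to -1.21 from the other arrays, follow from the choice and are no separate result. Plagl1 encodes an imprinted zinc finger protein, Tmod1 a cap of actin filament ends and Irx4 a transcription factor of the ventricle. Of the other 9 effectors Dchs1 was closest to Fat4 at 0.270, with 1.501% of all genes closer, followed by Scrib at 0.420 with 6.99% closer. That order too rests mainly on double knockout replicate 1.

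A promoter window of Fat4 is shown because Fat4 varied most among the 10 genes, by 1.57 log2 units between its lowest and highest array. It lies inside the gene span given above, before an internal start, and so does not show the sequence upstream of that span. The 250 bases before a RefSeq transcript start (chr3:38886690-38886939, plus strand, GRCm38.p6) are given 5′ to 3′ with CpG pairs in capitals.
Fat4 promoter: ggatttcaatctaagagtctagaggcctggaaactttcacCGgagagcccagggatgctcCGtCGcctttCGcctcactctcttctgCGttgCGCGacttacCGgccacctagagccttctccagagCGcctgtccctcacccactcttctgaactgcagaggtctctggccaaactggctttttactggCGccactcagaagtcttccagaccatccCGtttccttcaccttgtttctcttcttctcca
This window has 11 CpG pairs and 54.8% G and C, against medians of 6 pairs and 52.4% over 32851 such windows. RefSeq windows were matched for 8 of the 10 genes, 9 windows in all, with 4 CpG pairs at 1 of the Daam1 starts and 41 at Dact1. The windows of Fuz, Intu and Sec24b and 1 of the Daam1 windows also lie inside the gene spans given below. The Grainyhead motif AACCGGTT, searched on both strands, was in 0 of these 9 windows and in 0.116% of all windows. The TCF/LEF motif CTTTGAT, which Wnt-regulated transcription factors bind, was in 0 of 9 and in 3.21% of all windows, again on both strands.

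Scrib (chr15:76047162-76069784, GRCm38.p6) encodes a scaffold of the basolateral membrane that cooperates with Vangl2 in polarity. Its 1 probe set read 8.29, 8.57 and 8.67 in the double knockout, against 8.69, 8.61 and 8.68 in the single knockout. Double knockout replicate 1 was again the lowest array, and replicate 3 lay among the single knockout values. The difference was -0.15 (SE 0.10, interval -0.40 to 0.10, limma adjusted p = 0.872) and -0.04 without that array.

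**Figure D2:**
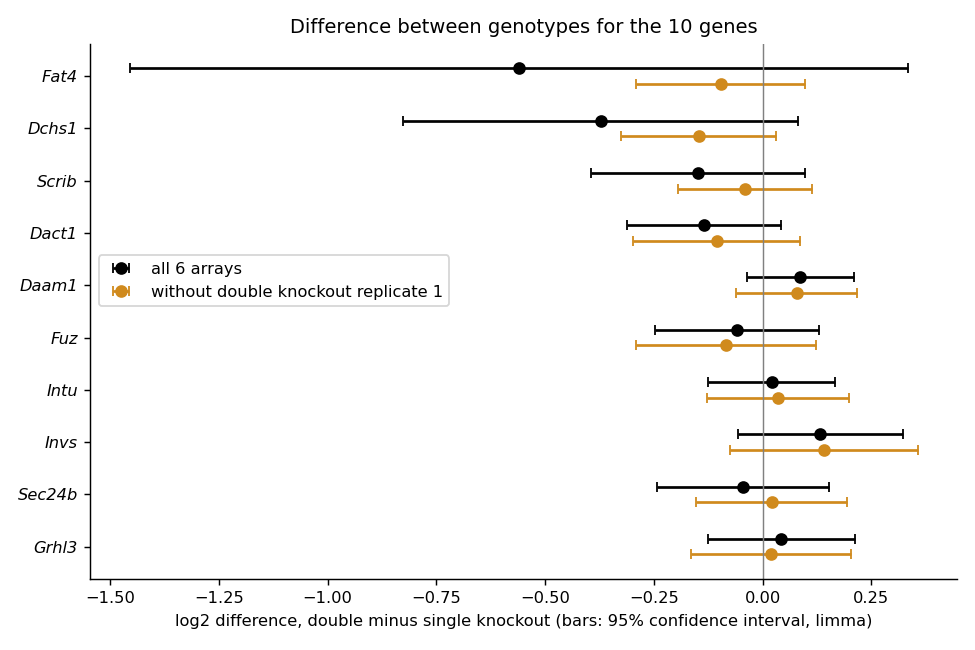
Log2 difference between double and single knockout for each of the 10 genes, as points with 95% confidence intervals from limma, with all 6 arrays in black and without double knockout replicate 1 in orange. Every interval includes 0. The Fat4 interval narrows when that array is left out, and its difference is then -0.10 in place of -0.56.

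Dact1 and Daam1 both bind Dishevelled, the protein that carries the Frizzled signal into the cell. Dact1 modulates Dishevelled, and Daam1 is a formin that joins it to actin assembly. Dact1 (chr12:71309884-71320107, GRCm38.p6) read 9.75, 9.84 and 9.83 in the double knockout, against 9.81, 9.98 and 10.02 in the single knockout. The groups overlapped through single knockout replicate 1, and the difference was -0.13 (SE 0.07, interval -0.31 to 0.04, limma adjusted p = 0.872) or -0.11 without double knockout replicate 1.

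Daam1 (chr12:71830950-71992376, GRCm38.p6) read 9.52, 9.53 and 9.45 in the double knockout, against 9.41, 9.42 and 9.41 in the single knockout. Every double knockout array lay above every single knockout array, in which Daam1 varied least of the 10 genes (SD 0.0051, n = 3). The size was small, with a difference of 0.09 (SE 0.05, limma adjusted p = 0.872) and a 95% interval of 0.975- to 1.16-fold. It was 0.08 without double knockout replicate 1. Daam1 was the only gene of the 10 with this pattern, and 4.85% of all genes had it. Daam1 and Dchs1 together make 2 of 10 genes with groups that did not overlap, where 11.4% of all genes had none. Without double knockout replicate 1 these were again the 2 genes without overlap, against 22.3% of all genes.

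The 3 Daam1 probe sets did not give the same picture. The set of intermediate brightness read 6.55, 6.52 and 6.86 in the double knockout, against 6.66, 6.77 and 6.75 in the single knockout, and differed by -0.08. The dimmest read 6.16, 5.82 and 5.53 in the double knockout, against 5.55, 5.40 and 5.40 in the single knockout. It was highest on double knockout replicate 1, and its difference of 0.39 (SE 0.15) did not pass when all 45037 probe sets were tested (limma adjusted p = 0.939), a test that called 0.00222% of them. RefSeq gives windows at separate starts of Daam1, and the sources used here do not say which transcripts each probe set reads.

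Fuz, Intu and Invs connect polarity with cilia. Fuz and Intu belong to the CPLANE complex, which recruits transport proteins to the base of the cilium, and Invs encodes inversin, a ciliary protein that binds Dishevelled and takes part in left-right patterning. Fuz (chr7:44894305-44900624, GRCm38.p6) read 6.17, 6.14 and 6.05 in the double knockout, against 6.10, 6.32 and 6.12 in the single knockout. These values overlapped, with a difference of -0.06 (SE 0.08, limma adjusted p = 0.909), or -0.08 without double knockout replicate 1. Its dimmer probe set differed by 0.13, in the other direction, with values of 4.01 to 4.13 in the double knockout and 3.90 to 3.99 in the single knockout. That set was among the 10.3% of all probe sets whose groups did not overlap, and it did not pass the test (limma adjusted p = 0.939).

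Intu (chr3:40531291-40704776, GRCm38.p6) had the smallest difference of the 10 genes with all arrays. It read 8.43, 8.52 and 8.44 in the double knockout, against 8.37, 8.51 and 8.45 in the single knockout. The groups lay on top of each other, with a difference of 0.021 (SE 0.061, limma adjusted p = 0.959) and a 95% interval of 0.916- to 1.12-fold. It was 0.036 without double knockout replicate 1. The other 3 Intu probe sets differed by -0.03 to 0.03.

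Invs (chr4:48279707-48431956, GRCm38.p6) read 7.07, 7.11 and 7.09 in the double knockout, against 7.10, 6.82 and 6.95 in the single knockout. Single knockout replicate 1 lay inside the double knockout range and the other single knockout arrays below it. Invs differed by 0.13 (SE 0.08, interval -0.06 to 0.32, limma adjusted p = 0.872), or by 0.14 without double knockout replicate 1. Its other probe sets, both dim, differed by 0.26 and 0.27, so all 3 pointed the same way without passing, each at a limma adjusted p of 0.939 over all probe sets.

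Sec24b and Grhl3 act at the ends of the pathway. Sec24b is the cargo adaptor of the COPII coat that exports Vangl2 from the endoplasmic reticulum. Sec24b (chr3:129982759-130061599, GRCm38.p6) read 9.45, 9.63 and 9.67 in the double knockout, against 9.55, 9.73 and 9.61 in the single knockout. The lowest and the next to highest of the 6 arrays were both double knockouts, and the difference was -0.05 (SE 0.08, limma adjusted p = 0.933), or 0.021 without double knockout replicate 1. Its dimmer probe set differed by 0.27, with values of 5.12, 4.68 and 4.71 in the double knockout and 4.52, 4.61 and 4.57 in the single knockout. There the groups did not overlap, as for 10.3% of all probe sets, and the highest value was on double knockout replicate 1. Without that array this probe set differed by 0.13 (with all arrays, limma adjusted p = 0.939).

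Grhl3 encodes a Grainyhead-like transcription factor of the surface ectoderm, the tissue that fuses over the closing neural tube. Grhl3 (chr4:135541887-135573632, GRCm38.p6) read 6.38, 6.31 and 6.30 in the double knockout, against 6.29, 6.38 and 6.18 in the single knockout. These groups overlapped, with a difference of 0.04 (SE 0.07, limma adjusted p = 0.921) and a 95% interval of 0.917- to 1.16-fold. It was 0.019 without double knockout replicate 1. Double knockout replicate 1 did not stand out for Grhl3, at 0.08 above the mean of the other arrays. Surface ectoderm markers differed above 0 for 7 of 11 with all arrays and for 4 of 11 without that array (medians 0.10 and -0.057), with summed levels of 13.84 to 14.34 in the double knockout and 13.77 to 13.86 in the single knockout. The 3 with an unadjusted p under 0.05 in limma were all below 0, Trp63 at -1.07, Wnt6 at -0.41 and Krt19 at -0.31 (limma adjusted p = 0.872 each). Trp63 was the 1 marker of these 11 below the median level of all genes.

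Across the 8 genes other than Fat4 and Dchs1 the 95% intervals of the fold between genotypes ran from 0.760, the lower bound for Scrib, to 1.25, the upper bound for Invs. For Fat4 the interval was 0.365- to 1.26-fold and for Dchs1 0.564- to 1.06-fold. A p that misses the threshold does not show that these levels were equal. Fuz, Invs and Grhl3 were below the median level of all genes, with 40.2%, 49.1% and 41.9% of genes dimmer. RMA can compress differences at low levels.

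**Figure D3:**
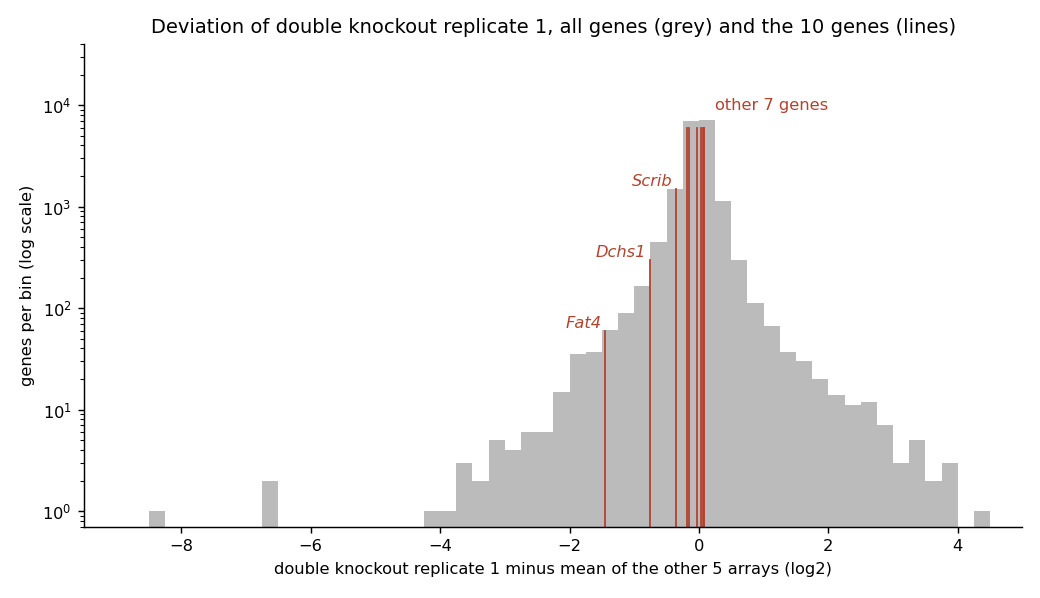
Log2 deviation of double knockout replicate 1 from the mean of the other 5 arrays (horizontal axis) for all 18193 genes as grey bars of genes per bin on a log scale, with the 10 genes as red lines whose height has no meaning. Fat4 at -1.45, Dchs1 at -0.76 and Scrib at -0.35 lie to the left, and the other 7 lie between -0.19 and 0.08.

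Relatives and partners of the 10 genes were read from 7 lists. Of 80 listed genes 74 were measured and 0 passed the test, with 4 at an unadjusted p under 0.05 (5.41%, against 4.96% of all genes) and 9 whose groups did not overlap (12.2%, against 11.4%). Their median difference was -0.012, against -0.0093 over all genes. Among the relatives and partners of Fat4 and Dchs1 (Fat1, Fat2, Fat3 and Fjx1), 0 of 4 passed, with a median of -0.02 (0.0071 without double knockout replicate 1). Fat3 differed by -0.17 (-0.03 without double knockout replicate 1) and Fjx1, a kinase that modifies such cadherins, by -0.07 (-0.06). Fat3 too was lowest on double knockout replicate 1, at 5.95 against 6.39 for the single knockout mean.

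Of 16 core polarity genes 0 passed, and the median was -0.001 (0.0070 without double knockout replicate 1). Vangl2, the membrane protein that cooperates with Scrib and is exported by Sec24b, read 9.54, 10.03 and 10.03 in the double knockout, against 10.11, 10.09 and 10.15 in the single knockout. Vangl2 was lowest on double knockout replicate 1, and it differed by -0.25 (-0.08 without that array). Celsr3, a seven-pass cadherin, differed by 0.27 (0.33 without that array).

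Among 14 genes of the Scribble module 0 passed, with a median of -0.05 (-0.04 without double knockout replicate 1). The polarity adaptor gene Pard6b differed by 0.25 and Arhgef7, which encodes a binding partner of Scribble, by -0.20, or by 0.18 and -0.07 without that array.

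The Dact and Naked list, of which 0 of 4 passed, had the lowest median of the 7 at -0.16 (-0.10 without double knockout replicate 1). Nkd2 read 6.43, 6.38 and 6.50 in the double knockout, against 6.75, 6.80 and 6.61 in the single knockout. Its groups did not overlap, and the difference was -0.28 with all arrays (SE 0.07, limma adjusted p = 0.872) and without double knockout replicate 1 (limma adjusted p = 0.707). Nkd2 was the 1 gene of these 4 below the median level of all genes. Nkd1, its paralog, read 8.18, 8.21 and 8.17 in the double knockout, against 8.24, 8.45 and 8.48 in the single knockout. It differed by -0.20 with all arrays (SE 0.08, limma adjusted p = 0.872) and without that array (limma adjusted p = 0.762). Like those of Nkd2, the groups of Nkd1 did not overlap, and 6.6% of all genes had no overlap in this direction. Both encode Dishevelled-binding inhibitors of Wnt signalling, and unlike Fat4 neither was lower on replicate 1 than on both other double knockout arrays.

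Of 13 cilium genes 0 passed, with a median of -0.02 (0.06 without double knockout replicate 1). Ofd1, a basal body protein gene, differed by 0.17 and Cplane2, a partner of Fuz and Intu, by -0.10, or by 0.22 and -0.15 without that array. Of 11 COPII genes 0 passed and the median was 0.002 (0.011 without that array), with Sec23a, the direct partner of Sec24 proteins, at 0.12 and Sec23b at 0.08, or at 0.12 and 0.01 without that array. Of 12 Grainyhead relatives and targets 0 passed, with a median of 0.04 (0.0011 without that array). Ovol1 differed by -0.29 and the tight junction gene Cldn4 by -0.32, or by -0.37 and -0.16 without double knockout replicate 1. Ovol1 was 1 of 6 genes of this list below the median level of all genes, and Cplane2, Celsr3 and Fat3 were below it too.

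**Figure D4:**
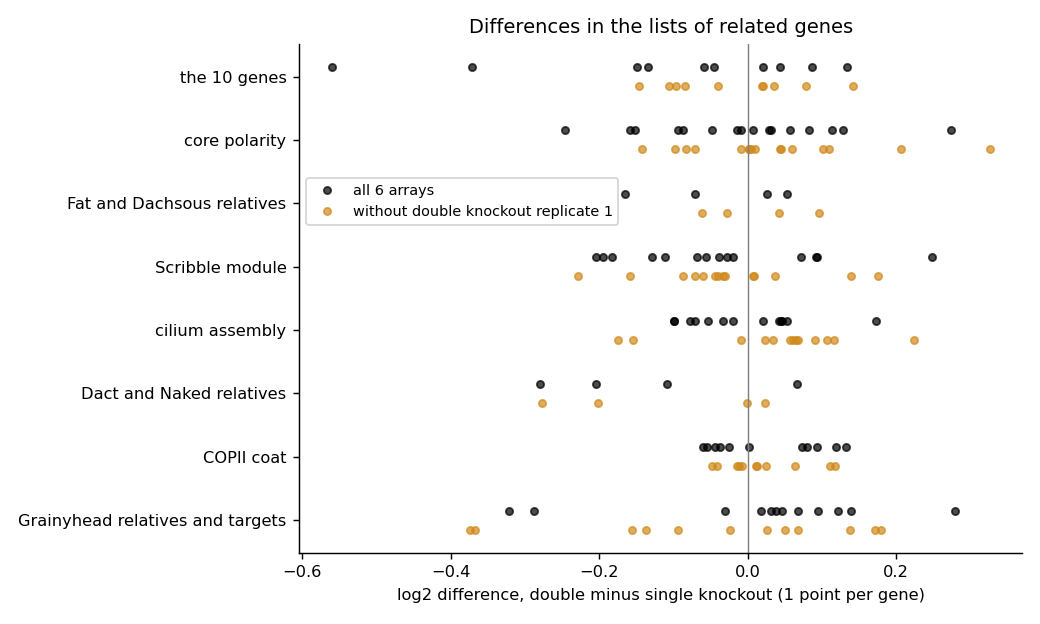
Log2 difference between double and single knockout for the 10 genes (top row) and for the 74 measured genes of 7 lists of relatives and partners, 1 point per gene, with all 6 arrays in black and without double knockout replicate 1 in orange. Fat4 at -0.56 and Dchs1 at -0.37 are the lowest points with all arrays, and without that array every one of the 10 lies within 0.2 of 0.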

How the data were processed

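The authors' deposited table holds log2 expression of 45101 probe sets on 6 arrays, made with RMA per the submitters' processing notes. The log2 scale was read from the values. The sources used here give neither the RMA version nor the probe definitions, and array scans were not used here. Probe sets were named through the platform annotation, and 34945 had 1 symbol. Each of 18193 genes was read from its brightest probe set, since 9010 genes had several. Coordinates and promoter windows are RefSeq's for GRCm38.p6. Groups and replicate numbers came from sample titles. Genotypes were compared by lmFit and eBayes of limma 3.58.1 (R 4.3.3, two-sided), adjusted over all genes, and the scripts were tested on simulated data. The number of arrays limits the precision. Same-numbered arrays did not deviate together (correlations of 0.09, -0.04 and -0.13 across genes), so numbers were not used as pairs. Named are the 10 genes, Fzd2, Fzd7 and the 5 genes most like the widest-ranging member, with predicted and cDNA-clone genes left out. Per list, members past the threshold or the 2 with the smallest p are named. The remaining genes named, Trp63 among them, were chosen after their values were seen. Members and lists were chosen with earlier results of these data known. The listed names Erbb2ip and Rsg1 were read as Erbin and Cplane2. A list of related genes is not reported here.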

Additional observations from a re-analysis of the deposited data

How the results depend on the processing

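Across 15 alternatives 0 of the 10 genes passed, at lowest with an adjusted p of 0.737 in limma, and 0 to 2 of them had an unadjusted p under 0.05. The 2 were Invs and Dact1 without single knockout replicate 1, where 802 of 18193 genes had such a p. Invs alone had it with the mean of the probe sets, beside 881 of 18193 genes. Without double knockout replicate 3 it was Dchs1 alone, beside 1024 of 18193 genes. The count of called genes, 1 over all genes, was 0 with the mean of each gene's probe sets, where 881 genes had an unadjusted p under 0.05, and 0 to 1 when 1 array was left out. It was 0 without double knockout replicate 3 or any 1 of the single knockout replicates, with 573 to 1024 genes at an unadjusted p under 0.05. The median difference of the 10 genes, -0.052, was 0.018 with the mean of the probe sets and -0.13 with dim genes left out, which keeps 7 of the 10, and -0.092 to 0.0066 when 1 array was left out, above 0 only without single knockout replicate 2. Of 137 member values under the alternatives 8 changed sign, all of Fuz, Intu, Sec24b or Grhl3. With the mean of the probe sets, Fuz differed by 0.034 and Sec24b by 0.11, as their dimmer probe sets differ the other way. When 1 array was left out, Fuz ranged from -0.10 to 0.0099, Intu from -0.015 to 0.052, Sec24b from -0.090 to 0.021 and Grhl3 from -0.011 to 0.093. The sign changed for Sec24b without double knockout replicate 1 (0.021) or single knockout replicate 2 (0.0033), for Intu without double knockout replicate 2 (-0.0064) or single knockout replicate 1 (-0.015), for Fuz without single knockout replicate 2 (0.0099) and for Grhl3 without single knockout replicate 3 (-0.011). The cause was not tested beyond the settings themselves. Fat4 ranged from -0.82 to -0.10 and Dchs1 from -0.51 to -0.15, both nearest 0 without double knockout replicate 1. With the replicate number as a block 1 gene and 0 of the 10 were called and the lowest adjusted p among the 10 was 0.855. Only double knockout replicate 1 correlated best with the single knockout array of its own number. Fuz, Invs and Grhl3 were below the median level of all genes, and their signal over background was not measured.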
